A study of Mus musculus with 3 samples.

Results

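The subject here is a class of open chromatin: regions away from promoters that were called as peaks in both kinase-inactive Cdk6 lines and in neither wildtype line. Overlapping peaks of all 4 lists were merged with a minimum overlap of 1 bp. A region was kept when both K43M lists and no wildtype list held a peak in it, when it lay on an autosome other than chromosomes 12, 13 and 18, and when it touched no window from 2000 bp before to 200 bp after any annotated transcription start. This gave 2610 K43M-only distal regions among 28976 distal regions on the 16 autosomes, which is 9.01% of them, and among 50850 merged regions on chromosomes 1 to 19 and X. The regions were thus chosen by the presence of peaks, and their presence in K43M and absence in wildtype lists is not a result. The reverse class, called in each of the wildtype lists but not in the K43M lists, held 1494 distal regions, or 5.16%. A further 8537 distal regions had a peak in all 4 lists, and these 2 classes are the comparisons used throughout.

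The libraries were ATAC-seq, in which a transposase cuts and tags accessible DNA, of mouse pre/pro-B-cell lines. All lines, those of the controls included, had been made from bone marrow by retroviral transduction with the BCR-ABL(p185) oncogene. The Cdk6+/+ lines carried wildtype Cdk6 on both alleles, and the Cdk6KM/KM lines carried on both alleles the K43M change, which removes the kinase activity of CDK6. There were 2 lines per genotype and 1 library per line, so a difference between genotypes cannot be told apart from a difference between individual lines. The labels do not say whether the lines came from separate mice, and p-values measure only the spread between these 4 lists. K43M replicate 1, K43M replicate 2 and WT replicate 2 were labelled samples, and the list without a sample of its own, called WT unnumbered here, was taken as wildtype from the design text. The lists held between 33038 and 39038 peaks with median summit pileups between 22 and 26 read ends. K43M replicate 1 was the longest list. Since a region needed a peak in both K43M lists, the shorter list of K43M replicate 2, with 34752 peaks, also limited the class. Promoter peaks stood at 8, 6, 8 and 8 of 8 B-lineage marker genes in K43M replicate 1, K43M replicate 2, WT replicate 2 and WT unnumbered, with Cd79b and Rag1 lacking one in K43M replicate 2. None of the 4 myeloid, 3 erythroid and 2 hepatocyte markers had a promoter peak in any list. Of 4 T-cell markers, Cd3d alone had one, in WT replicate 2. Of 2 neuronal markers, both had one in K43M replicate 1, Syn1 had one in K43M replicate 2 and Rbfox3 had one in WT unnumbered.

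Distal open regions are where enhancers and other regulatory elements lie, and they differ between cell types far more than promoters do. In B-cell precursors many of them are bound by a small set of factors that define the lineage: the E proteins such as E2A (the product of Tcf3) at E-boxes, EBF1 at palindromic EBF sites, PU.1 and other ETS factors, RUNX1, and the octamer factors. AP-1 factors, dimers of FOS, JUN and BATF proteins, bind distal sites in many cell types upon growth and stress signals, and BACH2, which acts in the B lineage, binds related sequences. CDK6 has no DNA-binding domain of its own and acts at chromatin through other proteins. Whether it acts through the factors named here was not tested.

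The sequences below span 100 bases on either side of the summit in K43M replicate 1, from the plus strand of GRCm38, for the best-ranked regions and for the motifs that the results turn on. Capitals mark matches of the 18 searched motifs. Only regions that touch no annotated exon are shown, and the first 3 are among the best-ranked of these, where a region is ranked by whichever K43M list places it lower, on a percentile scale of -log10 q within that list. The Kcng1 region was the best-ranked with an EBF match, the Ier5 region the best-ranked with an AP-1 match, the Sorcs1 region the best-ranked with AP-1 as its only motif, and the Prdm1 region the best-ranked of the gene with the most K43M-only regions. The Kcng1 and Prdm1 regions and the order were chosen after the values were seen.
Cntn4 region, chr6:105137244-105137444: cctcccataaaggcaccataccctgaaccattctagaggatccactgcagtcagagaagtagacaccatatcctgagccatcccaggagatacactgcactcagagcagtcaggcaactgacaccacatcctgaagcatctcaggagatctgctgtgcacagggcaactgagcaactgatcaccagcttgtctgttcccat
Irs1 region, chr1:82283290-82283490: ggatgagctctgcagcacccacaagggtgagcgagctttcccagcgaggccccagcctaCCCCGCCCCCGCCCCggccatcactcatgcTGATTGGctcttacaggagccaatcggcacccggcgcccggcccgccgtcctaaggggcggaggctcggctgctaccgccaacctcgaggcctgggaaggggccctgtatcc
Ctnnbl1 region, chr2:157818688-157818888: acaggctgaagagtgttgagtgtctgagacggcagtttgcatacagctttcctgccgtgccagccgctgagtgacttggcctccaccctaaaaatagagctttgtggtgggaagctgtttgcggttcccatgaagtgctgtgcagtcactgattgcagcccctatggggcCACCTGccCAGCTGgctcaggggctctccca
Kcng1 region, chr2:168341486-168341686: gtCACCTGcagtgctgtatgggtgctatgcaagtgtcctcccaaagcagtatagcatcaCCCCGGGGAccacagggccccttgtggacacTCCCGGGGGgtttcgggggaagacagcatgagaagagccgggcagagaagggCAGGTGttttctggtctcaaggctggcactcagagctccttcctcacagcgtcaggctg
Ier5 region, chr1:155073963-155074163: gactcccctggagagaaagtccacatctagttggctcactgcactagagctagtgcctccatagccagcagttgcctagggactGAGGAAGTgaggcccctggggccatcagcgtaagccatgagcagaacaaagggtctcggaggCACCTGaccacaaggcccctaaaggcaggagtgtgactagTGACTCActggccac
Sorcs1 region, chr19:50561340-50561540: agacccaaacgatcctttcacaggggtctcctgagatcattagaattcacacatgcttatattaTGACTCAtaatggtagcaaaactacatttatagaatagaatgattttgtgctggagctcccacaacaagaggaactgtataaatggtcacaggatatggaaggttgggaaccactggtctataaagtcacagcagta
Prdm1 region, chr10:44636130-44636330: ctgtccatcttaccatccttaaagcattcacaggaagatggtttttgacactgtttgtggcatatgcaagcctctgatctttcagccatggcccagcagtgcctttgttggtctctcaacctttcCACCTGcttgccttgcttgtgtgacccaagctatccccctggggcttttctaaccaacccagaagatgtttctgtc
The Cntn4 region held none of the motifs. The Irs1 region held 2 SP1 matches and 1 NFY match, both promoter-type motifs. The Ctnnbl1 region held the CACCTG E-box and the CAGCTG E-box side by side. The Kcng1 region held 2 EBF matches and 2 CACCTG E-boxes. The Ier5 region held an AP-1 match, a PU.1 match and a CACCTG E-box.

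The peaks of the class were mostly weak. Fold enrichment, the authors' ratio of summit signal to the background of the same library, ran from 2.52 to 17.2 with a median of 5.71 in K43M replicate 1. In K43M replicate 2 it ran from 2.69 to 13.3 with a median of 5.63. The median rank was percentile 20.4, against 18.9 for the WT-only regions and 38.9 for distal regions in all 4 lists. In only 268 regions (10.3%) were both peaks in the upper part of their lists, above the median, and 19 regions ranked above percentile 75. The summits in the K43M lists were 33 bp apart in the median. A wildtype peak lay within 1000 bp of 285 regions (10.9%), and the median distance to the nearest was 10.7 kb. Among the regions with the lowest -log10 q, 1 in an intron of Ikzf1 had 1.68 and 1 at Itpripl2 had 1.82 in K43M replicate 1. At the edge of the promoter rule, the nearest regions inside the class lay 12, 12 and 14 bp from a window (Actn4, Tmem56 and Trp53inp1), and the nearest outside overlapped one by 3, 4 and 11 bp (Gm46555, Ano10 and Alkbh2).

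The best-ranked regions stand high in both K43M lists by construction, since the rank is the lower of the K43M percentiles. The best lay between genes at chr6:105136996-105137759, 540 kb from the start of Cntn4, with a fold enrichment of 14.4 in K43M replicate 1 and 13.2 in K43M replicate 2, and no wildtype peak within 429344 bp. The next lay in an intron of Irs1, which encodes an adaptor of insulin and IGF1 receptors, at chr1:82283015-82283646, with 10.0 in both lists. Irs1 also had a promoter peak in both K43M lists and in neither wildtype list. The third was in an exon of Tnfrsf1b, a TNF receptor gene, with 12.3 and 11.3. Itpkb, whose product phosphorylates inositol trisphosphate in lymphocyte signalling, had an intronic region with 12.3 and 12.4. An intron of Ndufaf5, which encodes an assembly factor of respiratory complex I, held a region with 12.5 and 13.2. Ctnnbl1 followed with an intronic region at 12.2 and 13.3. The region near Bcas1 had 9.56 and 9.96. The region nearest to the start of Rfx2 lay in the body of Acsbg2 and had 12.4 and 11.6. The tenth region, in an intron of Fry, had 6.24 and 7.38 over a broad stretch. Over all 2610 regions, 33 reached a fold enrichment of 10 in both lists, and the Spearman correlation of fold enrichment between the lists was 0.535 across regions, which is a description since regions are not replicates.

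**Figure D1:**
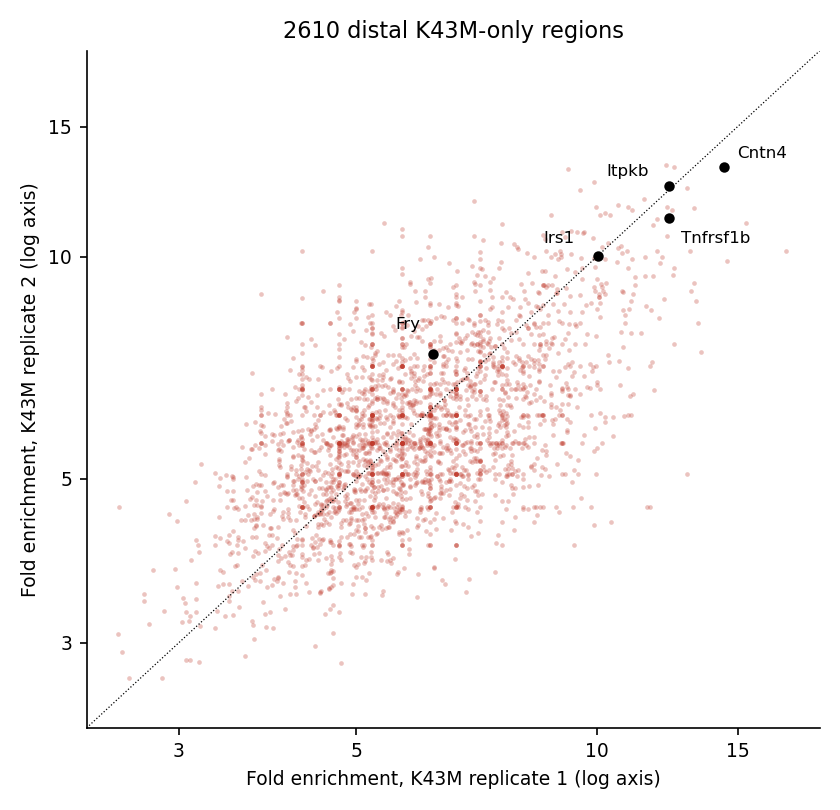
Fold enrichment of the 2610 K43M-only distal regions in K43M replicate 1 (horizontal, log axis) and K43M replicate 2 (vertical, log axis), 1 point per region, with the dotted line marking equal values. Most points lie near the medians of 5.71 and 5.63, and the labelled best-ranked regions of Cntn4, Irs1, Tnfrsf1b and Itpkb lie close to the line at the upper end, with Fry in the middle of the cloud.

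K43M-only distal regions lay inside genes more often than the comparison classes. The summit was in an intron in 56.6% of them (95% Wilson interval 54.7% to 58.5%, n = 2610), in 49.1% (46.6% to 51.7%) of the WT-only regions and in 49.3% (48.2% to 50.4%) of the regions in all 4 lists. Exons held the summit in 7.78%, 4.95% and 5.997%, and coding exons in 2.84%, 1.07% and 1.48%. The intergenic share was 35.6%, against 45.9% and 44.7%. The median distance from the summit to the nearest protein-coding start was 16.6 kb, against 23.6 and 18.04 kb. A protein-coding gene body contained 1520 of the regions (58.2%), and for 90.4% of those the nearest start was that of the gene itself. Intervals of this kind cover counting error only, since regions of 1 library share their source. The library was then taken as the unit, in regions that a single list held. These are outside the class but were set apart by the same peak calls. Their summits were intronic in 53.4% in K43M replicate 1, 52.4% in K43M replicate 2, 48.0% in WT replicate 2 and 50.0% in WT unnumbered. Both K43M lists were above both wildtype lists, and the exact two-sided permutation p was 0.333, the smallest that 2 lists against 2 allow. This measure was added after the data were seen.

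The genes nearest to the regions mostly had open promoters in all lines. For 64.7% of the regions the promoter of the nearest gene had a peak in all 4 lists, against 59.0% for WT-only regions, 67.9% for distal regions in all 4 lists and 48.5% of all protein-coding genes. A promoter peak in both K43M lists only was found for 103 regions, 3.95% (3.26% to 4.76%), against 2.14% (1.52% to 3.01%) for the WT-only regions and 2.51% (2.196% to 2.86%) for regions in all 4 lists. Over all distal regions this share was 3.04% (2.85% to 3.25%). The converse, a promoter open in wildtype alone, was found for 7 regions, 0.268%, against 1.27%, 0.410% and, over all distal regions, 0.552%. For 22.4% the promoter had no peak in any list.

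A part of the regions lay near each other, while the median gap to the nearest region of the class was 114 kb. Another region of the class lay within 25 kb of 542 of them, 20.8% (19.3% to 22.4%), and the same share was 15.2% among WT-only regions and 50.4% among regions in all 4 lists, classes of other sizes. For 11.6% (10.5% to 12.9%) the nearest region of any kind was another K43M-only distal region, while such regions made up 5.99% of all merged regions on the 16 autosomes. WT-only distal regions were the nearest neighbour of 1.92% (1.46% to 2.52%), against a share of 3.43% of all regions. The WT-only class showed the same arrangement, since 10.2% had a neighbour of their own class. So did the distal regions in all 4 lists, at 26.4% against a share of 19.6% of all regions. There were 35 chains of 3 or more regions linked within 25 kb, of which 29 had 3 regions, 5 had 4 and 1 had 5, and together they held 112 regions.

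The nearest protein-coding genes numbered 2004, which was 22.03% of the 9095 genes nearest to any distal region. Of these, 1589 had 1 K43M-only region, 297 had 2 and 118 had 3 or more. Among the 10 genes with the most were Prdm1, Tle3, Fry, Dnm3, Sdccag8, Rapgef2, Tns3, Med13l and Bach2. Genes with many distal regions can have more of any class, so the counts stand beside all distal regions of the gene.

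Prdm1, which encodes the repressor BLIMP-1 that drives plasma cell differentiation, had 8 K43M-only regions among 17 distal regions, with no WT-only region and 1 region in all 4 lists. The longest chain of the class was here, 5 regions within 31.8 kb at chr10:44607224-44639011, between 78.9 and 110 kb before the nearest Prdm1 start. All 5 lay in introns of annotated genes that are not protein-coding. Their fold enrichments in K43M replicate 1 were 8.85, 10.5, 4.71, 7.68 and 6.51 in order of coordinates. In K43M replicate 2 they were 6.03, 5.71, 4.76, 6.53 and 5.50. All were thus called in both lines, with the higher value in K43M replicate 1 in 4 of the 5. A sixth region in the same interval was called in K43M replicate 2 only, at 4.85. The other 3 K43M-only regions lay 176 kb before a start (6.07 and 7.11), 9.63 kb before a start (5.53 and 6.84) and 57.1 kb after a start (6.75 and 5.08). The promoter of Prdm1 was open in every list, at 11.96, 11.5, 13.9 and 10.5 in K43M replicate 1, K43M replicate 2, WT replicate 2 and WT unnumbered, so the genotypes overlapped there. The region in all 4 lists, 76.5 kb after the nearest start, had 8.24, 6.29, 7.11 and 9.05 in the same order, and the genotypes overlapped there too. The region of the chain nearest to the start held an AP-1 match and a CACCTG E-box. The region printed above held a CACCTG E-box.

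**Figure D2:**
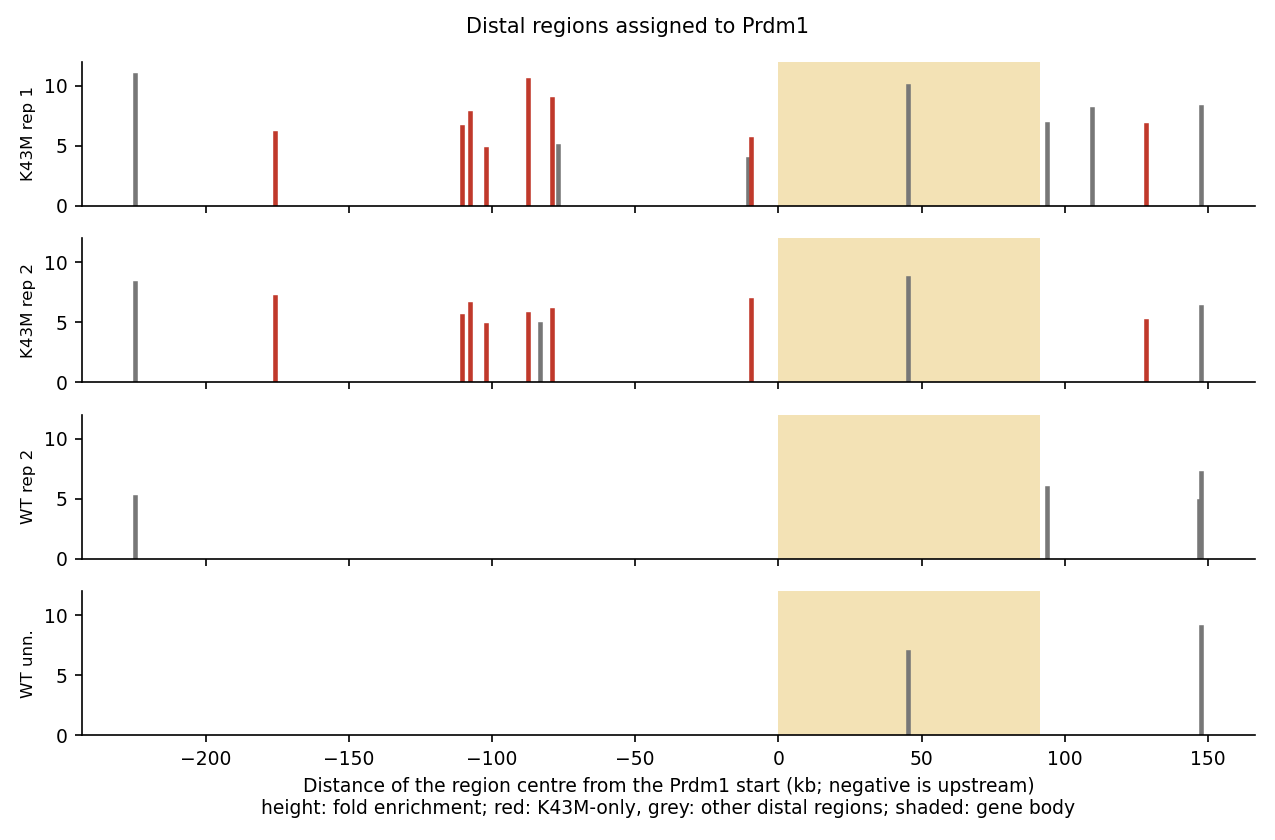
Distal regions assigned to Prdm1 in each of the 4 lists, placed by the distance of the region centre from the start of the gene model in kb (negative is upstream), with bar height giving fold enrichment. Red bars are the 8 K43M-only regions, grey bars are other distal regions and the shaded band is the gene body. Distances in the text are from the nearest of several annotated starts and can be shorter. The chain of 5 red bars stands in both K43M panels and not in the wildtype panels, which is how the class was chosen.

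Bach2, which encodes a transcriptional repressor that acts in the B lineage and is a known brake on Prdm1, had 5 of 24 distal regions in the class. The strongest, in a Bach2 intron 15.7 kb before the nearest start, had 11.9 in K43M replicate 1 and 10.2 in K43M replicate 2. Others had 11.7 and 8.47 (in an exon), 8.04 and 9.17, 5.31 and 7.44, and 5.71 and 5.08. At Bach2 9 regions had a peak in all 4 lists and 1 was WT-only.

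Genes of transcriptional cofactors stood among the 10. Tle3, a Groucho-type corepressor that partners with TCF/LEF factors among others, had 7 of 24. Its regions were spread from 39.9 to 184 kb from the start, with the strongest, at the far end, at 7.98 and 7.73. Med13l, a subunit of the Mediator kinase module, had 6 of 32.

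The remaining genes act in membrane, cytoskeletal and signalling roles. Dnm3, a dynamin of membrane scission, had 6 of 14, all intronic, and the strongest had 9.38 and 9.52. Its promoter peak, too, was in the K43M lists alone, at 4.76 and 6.30. Fry, a large scaffold protein gene, had 6 of 17, of which 4 formed a chain of 64.9 kb. Rapgef2, an exchange factor for RAP, had 6 of 26. Tns3, a tensin of focal adhesions, had 6 of 20, and Sdccag8, a centrosome protein gene, had 6 of 16. Fry and Med13l lie on chromosome 5, where the local background of K43M replicate 1 was 0.38 above its genome level on the log2 scale, against 0.08, 0.00 and 0.19 in K43M replicate 2, WT replicate 2 and WT unnumbered. The part of that in their counts was not tested. The share of K43M-only regions on chromosome 5 was 9.57%, within the range over the 16 autosomes from 8.07% on chromosome 11 to 10.1% on chromosome 6.

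Chains of 4 were found at Fry, Adamts7, Ssbp3 and Galnt2, and a further one lay between Tgm2 and D630003M21Rik. Adamts7, a secreted protease gene, had 4 K43M-only regions within 20.3 kb and no distal region in all 4 lists, and its promoter was open in K43M replicate 1 at 6.99 and in K43M replicate 2 at 6.47 but in neither wildtype list. Ssbp3, whose product binds LIM-domain complexes, had 4 within 45.3 kb, the strongest at 8.48 and 6.45. Galnt2, a glycosyltransferase gene, had 4 within 24.7 kb, between 3.50 and 6.85 in K43M replicate 1. Zfp536, a repressor of neuronal differentiation named here after its values were seen, had 4 of its 5 distal regions in the class, the best at 8.54 and 9.56, and no promoter peak in any list.

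The share of K43M-only regions was then taken for 24 gene lists, each over the distal regions nearest to its genes, and read against 9.01% for all distal regions. The list of mature B-cell and plasma cell genes had the highest share, 15 of 91 regions, 16.5% (10.3% to 25.4%). Of the 15, 8 were the regions of Prdm1, Bcl6 had 2 and Rel had 1. Without Prdm1, a setting added after the data were seen, the list had 7 of 74, or 9.46%. The BCL2 family, which sets the threshold for apoptosis, had 9 of 57, 15.8% (8.54% to 27.4%). Bcl2 itself had 4 of its 12 distal regions in the class, all intronic, and Bcl2l11, which encodes BIM, had 2 of 20. Without Bcl2 the family had 5 of 45, or 11.1%.

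Genes of the respiratory chain and ATP synthase, complex I assembly factors such as Ndufaf5 included, had 8 of 57, 14.0% (7.29% to 25.3%). Both distal regions of Ndufb3 were in the class, the better-ranked with 6.22 in K43M replicate 1 and 6.06 in K43M replicate 2. Ndufaf5 had 1, described above, and Ndufa12 had 1 with 9.51 and 12.3. The intervals of this list and of the BCL2 family contained the share over all distal regions.

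Genes of B-lineage identity had 12 of 173, 6.94% (4.01% to 11.7%), of which 5 were at Bach2, 2 at Ebf1 and 1 each at Foxo1 and Ikzf3 among others. Pre-B-cell receptor signalling genes had 9 of 149, or 6.04%, with 3 at Rasgrp1 and 2 at Blk. Stem and progenitor genes had 4 of 90, 4.44%, the Notch pathway 2 of 71, 2.82%, and erythroid and megakaryocyte genes 1 of 50, 2.00%. Cell cycle kinases, cyclins, pocket proteins and inhibitors had 7 of 89, 7.87%, with 2 at Ccnd1 and 1 in an intron of Cdk6, at 6.47 and 7.11. The AP-1, BATF, MAF and BACH factors had 7 of 74, 9.46%, of which 5 were at Bach2 and 1 at Jun. ERK feedback genes had 8 of 87, 9.20%, among them a region in an exon of Spred2 with 13.1 and 8.99. The remaining 13 lists lay between 5.33% and 11.4%. Of the 24 intervals, that of the mature B-cell list lay above 9.01% as a whole, and none lay below it.

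**Figure D3:**
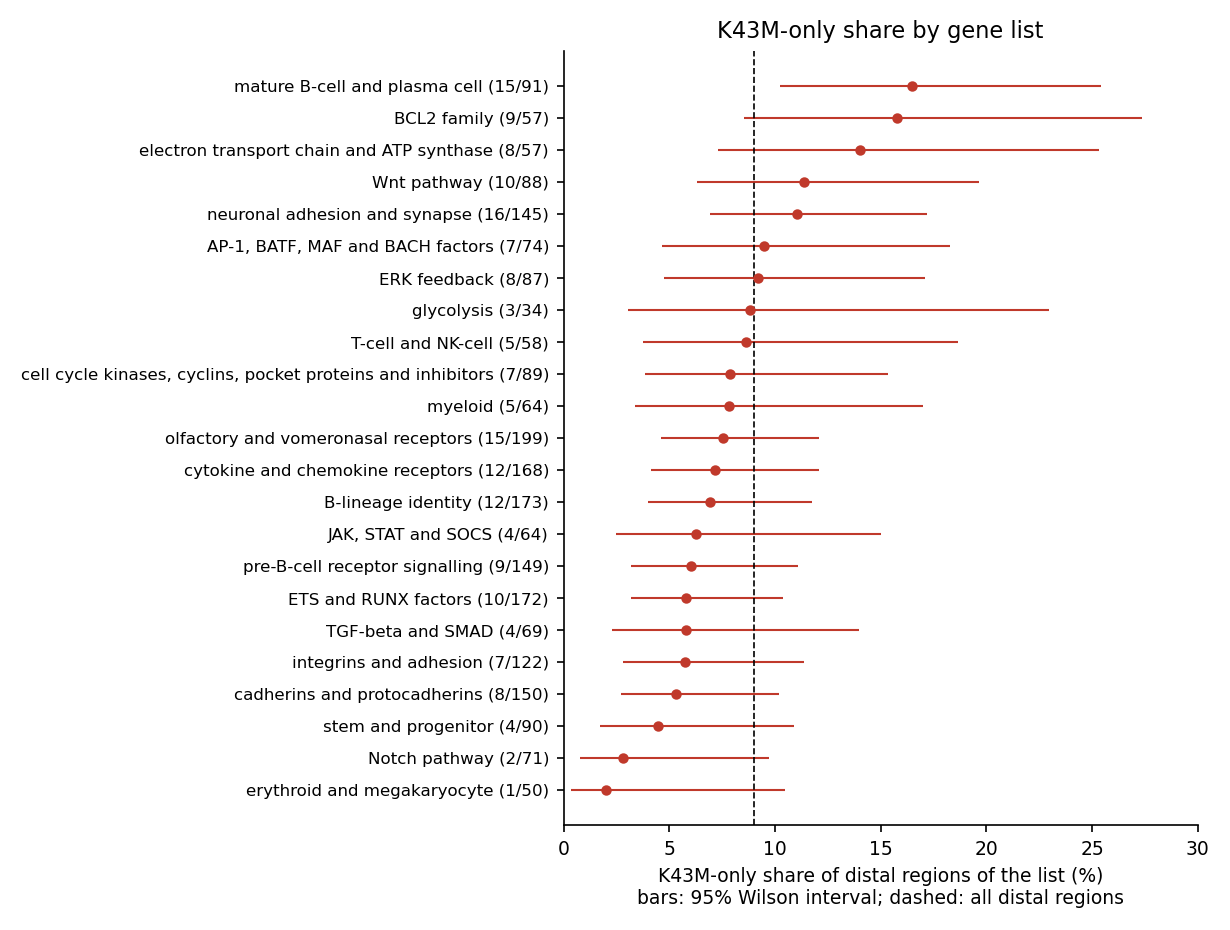
Share of K43M-only regions among the distal regions nearest to the genes of each list, in %, with 95% Wilson intervals, for the 23 lists with at least 30 distal regions. Counts stand beside the names and the dashed line marks 9.01%, the share over all distal regions. The mature B-cell and plasma cell list is highest at 16.5%, and most intervals contain the line.

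Motifs were counted within 100 bp of the summit, on both strands and with no mismatch. The patterns were TGANTCA for AP-1, TGACGTCA for CRE, CCGGAAGT for ETS, GAGGAAGT for PU.1, TGTGGTT for RUNX, AGATAA for GATA factors, CAGCTG and CACCTG for E-boxes, CCCNNGGGA for EBF, GAAANNGAA for ISRE, TTCNNNGAA for STAT, ATGCAAAT for OCT, TGTTTAC for FOX, CTTTGAT for TCF/LEF, GGGANTTCC for NF-kB, GGGGCGGGG for SP1, and CCAATCA or CCAATGA for NFY. CTCF was searched by its consensus. Neighbouring matches may share bases, as ISRE and STAT can, but the E-box patterns cannot match the same bases. The same window 1000 bp away gave the level of each pattern in nearby sequence. None of the 18 motifs was found in 776 regions (29.7%). The median GC content was 50.7%, against 49.8% for the WT-only regions and 51.7% for regions in all 4 lists. In the sequence 1000 bp away it was lower, at 45.8%, 44.3% and 45.8% in the same order. The nearby levels are thus not matched for base composition.

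E-boxes were scarcer in K43M-only distal regions than in WT-only and all-list regions. The CAGCTG E-box, bound by E2A and its relatives, was in 16.4% (15.03% to 17.9%), against 26.8% (24.6% to 29.1%) of WT-only regions, 22.8% (21.9% to 23.7%) of regions in all 4 lists and 19.9% of all distal regions. The sequence 1000 bp away held it in 9.27%, 8.77% and 10.1%. The CACCTG E-box was in 14.0% (12.7% to 15.4%), which was under the 14.98% of the nearby sequence, while WT-only regions had 23.2% (21.1% to 25.4%) against 12.5% nearby and regions in all 4 lists had 18.9% against 14.0% nearby. All distal regions had it in 17.7%. At least 1 of the E-boxes was in 27.7% of K43M-only regions, 42.8% of WT-only regions and 37.4% of regions in all 4 lists. Over 4 equal groups by rank the CAGCTG share ran from 14.7% to 17.6% in the K43M-only regions and from 23.6% to 35.3% in the WT-only regions, so these ranges did not overlap.

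RUNX and octamer matches were lower as well. RUNX was in 10.1% (9.02% to 11.3%), against 14.0% and 14.3% in WT-only and all-list regions and 11.9% of all distal regions. The octamer, bound by OCT1 and OCT2, was in 36 regions, 1.38% (0.998% to 1.90%), against 3.28% (2.49% to 4.31%), 2.52% (2.21% to 2.87%) and 2.25%, with 1.03% in the sequence nearby. FOX matches were in 2.22% (1.72% to 2.86%), under the 3.18% nearby, against 4.42%, 3.12% and 3.07%. PU.1 was in 7.32%, against 8.43%, 10.1% and 8.33%. CRE was in 6 regions, 0.230%, against 0.535%, 0.679% and 0.435%. Distal regions that only 1 list held had RUNX in 10.4% and PU.1 in 6.92%, near the K43M-only shares. The octamer was there in 2.03%, FOX in 3.04% and CRE in 0.295%.

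EBF, AP-1 and TCF/LEF matches were higher. EBF, the site of a factor that commits cells to the B lineage, was in 402 regions, 15.4% (14.1% to 16.8%), against 10.2% (8.74% to 11.8%) of WT-only regions, 13.9% (13.2% to 14.7%) of regions in all 4 lists and 11.3% of all distal regions, with 2.80% in the sequence nearby. In the best-ranked of the 4 groups of K43M-only regions its share was 20.4% (17.5% to 23.6%). The best-ranked group of all-list regions had 16.9% (15.3% to 18.5%) and that of WT-only regions 10.2% (7.49% to 13.6%). AP-1 was in 296 regions, 11.3% (10.2% to 12.6%), against 8.37% (7.07% to 9.88%), 10.0% (9.38% to 10.7%) and 9.39%, with 6.63% nearby. For both EBF and AP-1 the intervals of the K43M-only and the all-list regions overlapped. The AP-1 difference lay in the form TGAGTCA or TGACTCA, with 9.12% against 5.82% and 8.02%, and not in TGAATCA or TGATTCA, with 2.38%, 2.74% and 2.16%. From the worst to the best of the 4 rank groups the AP-1 share was 9.49%, 10.6%, 11.5% and 13.8% in the K43M-only regions. In the same order it was 9.65%, 8.95%, 10.5% and 10.9% in all-list regions, and 8.56%, 8.04%, 8.58% and 8.29% in WT-only regions. TCF/LEF was in 121 regions, 4.64% (3.89% to 5.51%), against 2.01% (1.41% to 2.85%), 2.86% (2.53% to 3.23%) and 2.999%. It was close to the 4.14% in the sequence nearby, whereas the WT-only regions lay under their 3.48%.

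**Figure D4:**
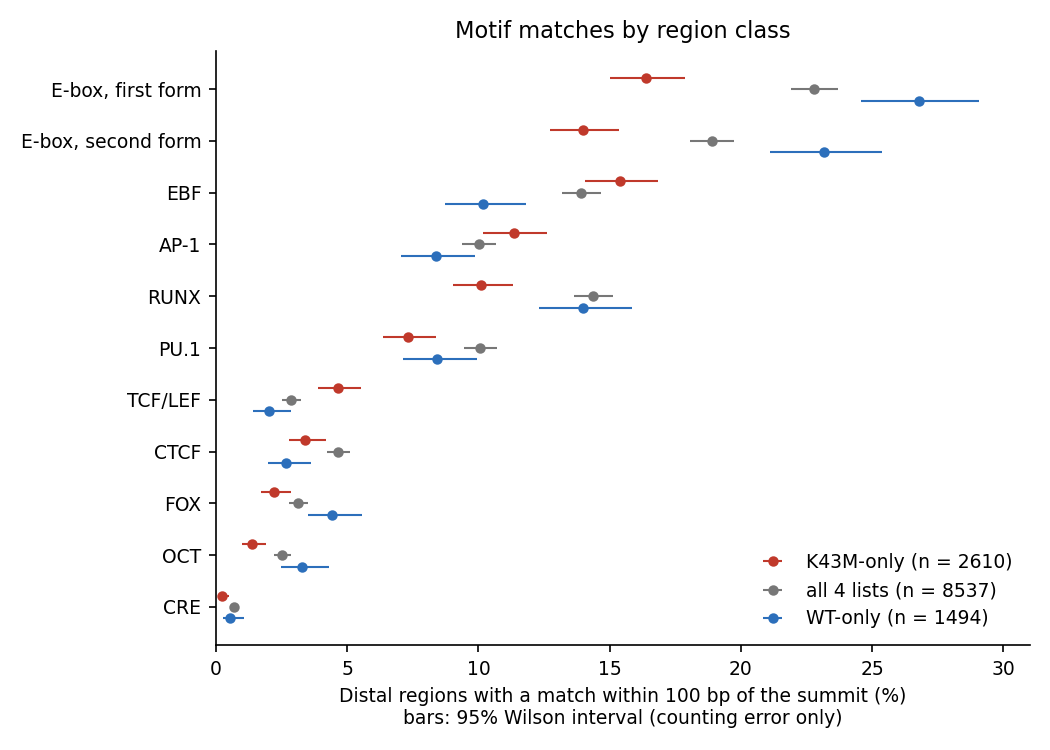
Share of distal regions, in %, with a match of each of 11 motifs within 100 bp of the summit, for K43M-only (red), all-list (grey) and WT-only (blue) regions, with 95% Wilson intervals. The first E-box form is CAGCTG and the second CACCTG. Both lie lowest in the K43M-only regions, at 16.4% and 14.0%, while EBF lies highest there at 15.4%.

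Regions with a peak in 3 lists lay between the K43M-only and WT-only regions for the CAGCTG E-box and TCF/LEF, but not in each case for EBF. The CAGCTG share was 16.4% in K43M-only regions, 20.2% with both K43M lists and 1 wildtype list, 22.8% in all 4 lists, 21.5% with 1 K43M list and both wildtype lists, and 26.8% in WT-only regions. The EBF share in the same order was 15.4%, 13.3%, 13.9%, 7.89% and 10.2%, so that regions with 1 K43M list and both wildtype lists lay below the WT-only regions. The TCF/LEF share was 4.64%, 3.35%, 2.86%, 2.06% and 2.01%.

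Regions that only 1 list held are not in the class, and they gave a test with the library as the unit. They were set apart by the same peak calls of the same libraries, so they are not independent of the class. The AP-1 share of such distal regions was 8.45% in K43M replicate 1 (n = 3856 regions), 10.9% in K43M replicate 2 (n = 2091), 8.69% in WT replicate 2 (n = 2187) and 6.27% in WT unnumbered (n = 2042). K43M replicate 1 lay below WT replicate 2, so the genotypes overlapped. The means were 9.66% and 7.48%, and the difference of 2.18 percentage points had an exact two-sided permutation p of 0.667, where 0.333 is the smallest p that 2 lists against 2 allow. Without WT unnumbered the difference was 0.705, and without K43M replicate 1 it was 3.31.

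Some of the other motifs were put to the same test after the data were seen. They were the E-boxes, RUNX, OCT, FOX, EBF, TCF/LEF and CTCF, with intronic position 9 measures in all. Apart from CTCF, these measures had already differed between K43M-only and WT-only regions, with intervals that did not overlap. CAGCTG was in 14.9% and 17.6% of the regions private to K43M replicates 1 and 2, and in 18.2% and 20.1% of those private to WT replicate 2 and WT unnumbered. Both K43M lists were lower, by 2.85 percentage points in the mean. CACCTG, at 14.5% and 18.3% against 17.97% and 18.6%, overlapped between genotypes. OCT was lower in both K43M lists, at 1.45% and 1.58% against 3.34% and 2.204%. RUNX was lower in both, at 8.56% and 10.3% against 10.5% and 13.8%, and FOX at 2.54% and 2.77% against 2.97% and 4.31%. EBF was higher in both, at 10.5% and 9.66% against 5.85% and 7.54%, and so was TCF/LEF, at 3.97% and 3.204% against 1.78% and 2.69%. Each of these measures without overlap had an exact permutation p of 0.333, the smallest possible, and 0.429 after Benjamini-Hochberg adjustment over the 9, so none could pass a threshold of 0.05 in this design.

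**Figure D5:**
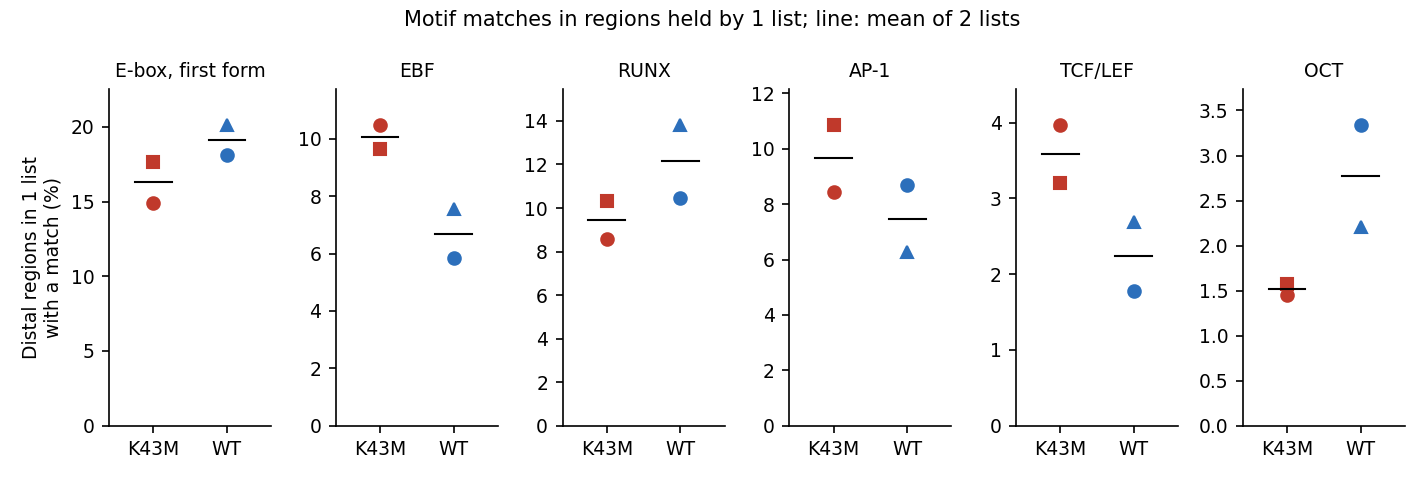
Share, in %, of distal regions held by 1 list that have a match of each of 6 motifs, 1 point per list (K43M replicate 1 red circle, K43M replicate 2 red square, WT replicate 2 blue circle, WT unnumbered blue triangle), with a line at the mean of each genotype and each vertical axis on its own scale from 0. The genotypes do not overlap for the CAGCTG E-box, EBF, RUNX, TCF/LEF and OCT, and overlap for AP-1.

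Shared regions beside the K43M-only regions did not show higher values in the K43M lists. For the 1222 distal regions in all 4 lists with a K43M-only but no WT-only distal region within 25 kb, the median log2 fold enrichment, relative to the median of all such shared regions of the list, was -0.059 in K43M replicate 1, -0.060 in K43M replicate 2, -0.033 in WT replicate 2 and -0.046 in WT unnumbered. The K43M lists were both lower, by 0.020 in the mean (exact two-sided permutation p = 0.333, the smallest possible). At the 1037 promoter regions in all 4 lists with such a neighbour the values were -0.12, -0.10, -0.10 and -0.10, and the difference was -0.0082 (exact permutation p = 1). Distal regions in all 4 lists beside a WT-only but no K43M-only region (n = 713) had a difference of the same sign, -0.029. These comparisons were added after the data were seen.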

How the data were processed

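The authors trimmed reads with Trimmomatic 0.36, mapped them to mm10 with BWA 0.7.15, removed blacklisted and ambiguous mappings with bedtools and SAMtools 1.3.1, and called peaks per library with MACS2 2.1.0 (versions from the submitters' processing notes). The methods name no control. The deposited values are, per peak, the authors' fold enrichment (a ratio of summit signal to the background of the same library) and -log10 p and -log10 q. They depend on the depth and background of each library, so values set side by side across lists are descriptions, and reads were not analysed.

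Summit pileups were recovered from fold enrichment and -log10 p, within 0.01 for 100% of peaks. Read totals are not given in the sources used here, so depth is known only through these values. Peaks were merged across lists, classified by list and placed on GENCODE mouse release 21 of the same build. A gene was assigned by the nearest protein-coding start. Shares carry 95% Wilson intervals. Library-level shares were compared by exact permutation over the 4 lists. No test compared peak presence itself, but the tested sets of regions were picked by which lists held a peak. Regions were not treated as replicates. The text names the 10 best-ranked regions, the 10 genes with the most regions, the 5 chains with the most regions and up to 4 genes per list, by a fixed rule, and says where others were chosen later. Some items that the rule selects are not reported here. The regions, gene lists and motifs were chosen with earlier results of these data known. Sequences come from the RefSeq copy of GRCm38. Alternatives changed the peak threshold, list length, overlap, chromosomes, promoter window, transcripts, gene models, linking distance, motif window, summit and libraries.

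The code recovered all 20000 simulated regions with the right class, all 1900 planted motifs and all 2906 simulated pileups. Calculations used Python 3.11.15, pysam 0.24.0, samtools 1.23.1, scipy 1.17.1, matplotlib 3.10.9, pandas 2.3.3 and numpy 2.4.6.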

Additional observations from a re-analysis of the deposited data

How the results depend on the processing

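The K43M-only class depends on each of the 4 lists, since a left-out list no longer has to hold or lack a peak. Leaving out 1 library at a time gave 3483 to 6598 regions, intronic shares of 54.1% to 56.3%, shares with another region within 25 kb of 23.6% to 35.9% (31.7% without K43M replicate 1, 35.9% without K43M replicate 2), AP-1 shares of 9.503% to 11.6% and AP-1 differences between regions private to a list of 0.705 to 3.31 percentage points (0.705 without WT unnumbered, 3.31 without K43M replicate 1), K43M above WT throughout. The count was 4879 without K43M replicate 1, 6598 without K43M replicate 2, 4124 without WT replicate 2 and 3483 without WT unnumbered. Under the other alternatives the count stayed within 1.5 times the main one, down to 1979. The share with a neighbour was 10.5% at 10 kb and 46.2% at 100 kb, as the linking distance changed, and 15.8% with the same number of peaks per list, which left 1979 regions. The AP-1 share was 6.51% within 50 bp and 20.04% within 250 bp of the summit, as the searched length changed. With protein-coding gene models only, the intronic share was 51.7%. The intronic, neighbour and AP-1 shares were recomputed for the K43M-only regions only, so their differences from the other classes were not recomputed under these settings. Differences from WT-only regions were recomputed for 4 motifs, added after the data were seen, and none changed direction. They ranged over their 15 alternatives from -11.1 to -4.05 percentage points for CAGCTG (-4.05 without WT unnumbered, -5.52 without WT replicate 2, -6.74 without K43M replicate 1), 2.86 (without K43M replicate 2) to 7.13 for EBF, 1.32 (without WT replicate 2) to 2.998 for TCF/LEF, and -2.73 to -0.830 (without WT replicate 2) for OCT. No paired analysis was possible because the genotypes share only replicate number 2, which names lines and does not pair them. Peak lists hold no value where no peak was called, so absence of a peak is not absence of signal, and most K43M-only peaks were weak.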

Other observations

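The chromosomes left out of the class had fewer K43M-only distal regions by the same rule. These made up 6.71% of the distal regions on chromosome 12 (95 of 1416), 5.70% on chromosome 13 (80 of 1403) and 4.996% on chromosome 18 (65 of 1301), below the lowest of the 16 autosomes used, 8.07%. The local background recovered from peaks was lower there in both K43M lists. On chromosome 13 it was -0.43 and -0.53 in K43M replicates 1 and 2, relative to the genome level of each list on the log2 scale, against 0.01 in WT replicate 2 and 0.06 in WT unnumbered. On chromosome 18 the wildtype lists had 0.30 and 0.25, and the K43M lists -0.16 and -0.23. The share of K43M-only regions on chromosome X was 9.47% (88 of 929).

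Summits of the K43M-only distal regions lay in repeats in 11.5% (95% Wilson interval 10.3% to 12.8%), against 13.7% of WT-only and 10.4% of all-list regions, and against 24.6% at 1000 bp from the summit.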
